A study of Mus musculus with 12 samples.

Results

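The Lingo and Slitrk genes examined here are 7 neuronal adhesion genes, Lingo1, Lingo2, Lingo3, Lingo4, Slitrk1, Slitrk3 and Slitrk5, taken as a named list from 55413 annotated mouse genes. They were chosen by earlier H4K12ac peak values of these same mice, so their genotype differences are described. Calls are given only from fits over all genes, transcript starts or regions, and are no independent test of the 7 genes. Peaks of the acetylated histone mark H4K12ac were collected at the transcription start site (TSS) of each gene and of each of its alternative transcripts, and in the gene body. The data are 10 H4K12ac ChIP-Seq peak lists from neuronal nuclei that were sorted by FACS from the whole hippocampus, 5 from Tip60 cKO and 5 from control mice. Tip60 cKO mice carried CaMKCreERT2 and Tip60 f/f, and controls carried Tip60 f/f without the driver. Both genotypes had received tamoxifen, and the labels give all mice as males of 3 months and strain C57BL/6J, whereas the study's methods name another substrain and animals of both sexes. The driver is active in postmitotic excitatory forebrain neurons, so sorted nuclei of other neurons keep TIP60, an acetyltransferase for histone H4. In such mixed nuclei, fewer nuclei with the mark and less of the mark in each nucleus cannot be told apart.

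Both families are single-pass membrane proteins whose extracellular part is built of leucine-rich repeats. LINGO1 is known as a partner of the Nogo receptor that restrains axon growth and myelination, and its relatives LINGO2, LINGO3 and LINGO4 have the same outline of leucine-rich repeats and an immunoglobulin domain. SLITRK proteins sit mostly on the postsynaptic side and bind LAR-type receptor phosphatases on the axon, and SLITRK3 is known for its part in inhibitory synapses. Acetylation of histone H4 marks open promoters and transcribed genes.

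The libraries held 22864189 to 37077725 tags in Tip60 cKO and 27418740 to 37923809 in controls, and the lists held 64245 to 135494 and 93575 to 136409 peaks. The shortest list, Tip60 cKO 5, also had the fewest tags. All 5 neuron markers and all 4 excitatory markers had a TSS peak in each of the 10 lists, whereas 0 of 3 microglial markers had one in any list. Among glial markers, Mbp had a peak in all 10 lists and Gfap in 4 Tip60 cKO and 5 control lists, and Aqp4, Aldh1l1 and Mog had none. Of the inhibitory markers, Gad1 had no peak in any list, and Gad2 had one in 1 and Slc32a1 in 2 Tip60 cKO lists and in 0 control lists. Kat5, which encodes TIP60, had a TSS peak in all 10 lists, and a peak at this TSS does not check the deletion. Between 111 and 171 peaks per Tip60 cKO list and 128 to 160 per control list lay in the 7 genes or within 2 kb of them.

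The 7 genes differed widely in size on the GRCm38 assembly. Lingo2 spanned 1245.1 kb on the minus strand of chromosome 4 (chr4:35706647-36951747) and Lingo1 spanned 178 kb on the minus strand of chromosome 9 (chr9:56618475-56796468). Lingo3 (chr10:80832801-80844039, minus strand), Lingo4 (chr3:94398517-94404501, plus strand), Slitrk1 (chr14:108908800-108914158, minus strand), Slitrk3 (chr3:73047265-73057803, minus strand) and Slitrk5 (chr14:111675097-111683141, plus strand) were 5.36 to 11.2 kb long. Every protein-coding transcript had its coding sequence in 1 exon, except 1 Lingo1 transcript and the Lingo4 transcript, which had 2 coding exons. Lingo1 had 5 separate start sites and Lingo2 had 4, while each other gene had 1. Slitrk1 was a single exon, and in Lingo1 and Lingo2 the alternative starts lay upstream of the main coding exon.

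Sequences before the start sites are shown so that base composition can be read beside the peaks, for starts whose overlap with peaks ranged from all lists to none. RefSeq held 10 starts for the 7 genes, and 250 bases before a start are given here for those 6 that overlapped no annotated exon, in lower case with CpG dinucleotides in capitals. Over 32841 RefSeq starts of the same window length, the median CpG number was 6. A RefSeq start can differ from the annotated TSS at which peaks were scored. For Slitrk3, Lingo4 and Slitrk5 it lay 0.737, 0.702 and 0.93 kb downstream of that TSS, so their 250 bases lie inside the gene.
Lingo2 internal start, chr4:35845205-35845454, minus strand: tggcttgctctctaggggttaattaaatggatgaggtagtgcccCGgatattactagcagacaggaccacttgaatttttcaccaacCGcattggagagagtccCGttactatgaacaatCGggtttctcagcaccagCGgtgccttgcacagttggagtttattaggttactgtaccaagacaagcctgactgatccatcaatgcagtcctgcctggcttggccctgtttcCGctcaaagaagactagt
Lingo2 intragenic RefSeq start, chr4:36718964-36719213, minus strand: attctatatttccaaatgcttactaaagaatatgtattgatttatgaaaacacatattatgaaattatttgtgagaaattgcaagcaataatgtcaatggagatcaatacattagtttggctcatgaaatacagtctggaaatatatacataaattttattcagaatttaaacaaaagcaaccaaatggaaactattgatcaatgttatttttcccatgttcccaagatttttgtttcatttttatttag
Lingo1 internal start, chr9:56635649-56635898, minus strand: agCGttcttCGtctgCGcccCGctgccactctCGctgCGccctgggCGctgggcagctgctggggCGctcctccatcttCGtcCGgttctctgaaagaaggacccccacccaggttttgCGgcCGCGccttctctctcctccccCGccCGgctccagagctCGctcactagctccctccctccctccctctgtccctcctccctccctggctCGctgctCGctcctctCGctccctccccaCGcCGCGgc
Lingo3 start, chr10:80844040-80844289, minus strand: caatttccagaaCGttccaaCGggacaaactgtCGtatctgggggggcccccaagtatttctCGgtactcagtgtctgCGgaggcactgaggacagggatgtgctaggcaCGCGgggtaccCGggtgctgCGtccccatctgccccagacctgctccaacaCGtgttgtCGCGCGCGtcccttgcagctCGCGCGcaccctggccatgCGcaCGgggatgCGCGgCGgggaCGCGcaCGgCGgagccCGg
Slitrk1 start, chr14:108914240-108914489, minus strand: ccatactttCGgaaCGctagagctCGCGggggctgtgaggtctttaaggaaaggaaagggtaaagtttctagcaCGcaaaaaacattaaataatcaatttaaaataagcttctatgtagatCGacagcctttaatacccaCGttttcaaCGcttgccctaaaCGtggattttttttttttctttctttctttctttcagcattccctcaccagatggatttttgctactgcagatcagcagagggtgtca
Slitrk3 start, chr3:73057067-73057316, minus strand: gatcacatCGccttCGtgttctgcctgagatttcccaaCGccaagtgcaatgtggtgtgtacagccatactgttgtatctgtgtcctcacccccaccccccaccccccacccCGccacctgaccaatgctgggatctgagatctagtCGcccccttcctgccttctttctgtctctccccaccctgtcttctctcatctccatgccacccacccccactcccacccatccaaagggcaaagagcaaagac

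The Lingo2 internal start had 6 CpG in these 250 bases, and the intragenic Lingo2 start of RefSeq, 232.8 kb downstream of the first TSS, had 0. The Lingo1 internal start had 22 CpG, more than 85.2% of all starts had, and Lingo3 had 27. Slitrk1 had 9 and Slitrk3 had 5. Of the starts not printed, Lingo1 at its first exon had 31 CpG, Slitrk5 had 30 and Lingo4 had 8. A peak overlapped the 250 bases in all 10 lists at both Lingo1 starts, both Lingo3 starts, Slitrk3 and Slitrk5, and in 0 of 10 lists at this intragenic Lingo2 start. At the internal Lingo2 start a peak overlapped them in 5 control and 0 Tip60 cKO lists, at Slitrk1 in 2 and 3, and at Lingo4 in 2 and 4. Among fixed motifs searched on both strands, the CCAAT box (CCAAT, in 33.9% of all starts) occurred 1 time at the Lingo2 internal start and 1 time at Slitrk3. The GC box (GGGCGG, in 32.7% of starts) occurred 1 time at both Lingo1 starts, at Slitrk5 and at the second Lingo3 start. The E box (CACGTG, in 6.02%) occurred at the first Lingo3 start, and TATAAA (in 12.4%) and TGACGTCA (in 1.55%) were at none of the 10.

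H4K12ac at the starts is given as a TSS rank score, the percentage of all annotated genes whose strongest peak within 2 kb of the TSS had a fold enrichment no higher than that of the gene in the same library. A gene with no peak scores 0. Because every window spans 4 kb, the scores can be compared between genes. In controls the order of the mean scores was Slitrk5 at 99.1 ± 0.498, Lingo1 at 98.3 ± 1.63, Slitrk1 at 91.1 ± 3.57, Slitrk3 at 90.9 ± 7.34, Lingo3 at 89.7 ± 3.58, Lingo2 at 80.0 ± 4.22 and Lingo4 at 57.6 ± 32.7 (SD, n = 5).

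**Figure D1:**
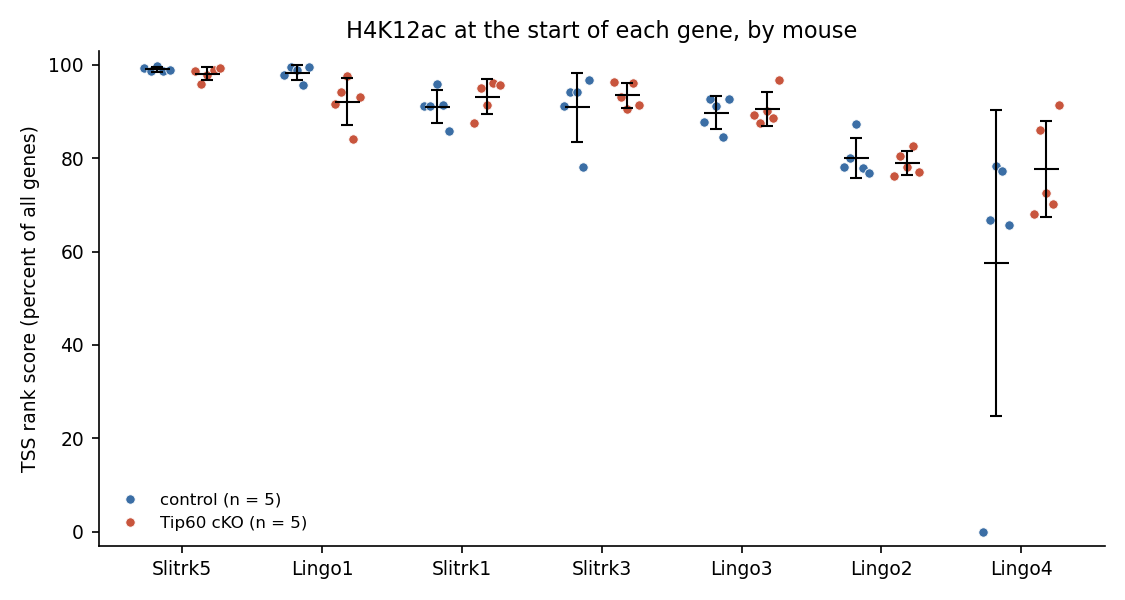
TSS rank score (percent of all genes, vertical axis) of the 7 genes in each mouse, controls in blue and Tip60 cKO in red, with the mean and SD in black (n = 5 per genotype). The genotypes overlap at every gene, and Lingo4 has 1 control mouse at 0.

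Neighbours in this order were set side by side within each of the 10 mice. The order was read from the control means of mice that are among the 10, so the differences are a description with no test. Lingo3 exceeded Lingo2 in 10 of 10 mice by 10.6 ± 4.93 (SD of the differences), the one step in which every mouse had the same direction. Slitrk5 exceeded Lingo1 in 8 of 10 mice by 3.40 ± 4.81. Lingo1 exceeded Slitrk1 by 3.07 ± 7.03, Slitrk3 exceeded Lingo3 by 2.04 ± 4.72 and Lingo2 exceeded Lingo4 by 11.9 ± 24.8, all less than the spread between mice. The last of these was 4.51 without control 1 and 38.9 with equal numbers of peaks. Slitrk1 and Slitrk3 were level, with a difference of -0.05 ± 6.70.

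No member was called in the fit over all 21672 genes with a TSS peak in at least 2 lists (limma, Benjamini-Hochberg adjusted p under 0.05), and 1 of 7 lay under an unadjusted p of 0.05, as did 1448 genes with Tip60 cKO lower and 1106 with Tip60 cKO higher. That count was 0 by pileup and without any one of Tip60 cKO 1 or 4 or control 1, 2, 3 or 5, and nothing is read from it. Over all these genes 0.157% were called lower and 0.0784% higher in Tip60 cKO. In none of the 7 genes were the rank scores of the genotypes separate, whereas 1.62% of all genes were separate with Tip60 cKO lower and 1.93% with Tip60 cKO higher. The mean was lower in Tip60 cKO for 3 of the 7 genes, and for 5 of 7 without control 4. By fold enrichment and by pileup scaled to the tags it was lower for 6 of 7, beside 72.5% and 83.4% of all genes. Over all genes the median difference was -0.69, and 55.6% of genes had a lower mean in Tip60 cKO.

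Lingo1, the Nogo receptor partner, had rank scores of 97.9, 99.6, 98.8, 95.6 and 99.5 in controls 1 to 5, and of 91.6, 94.1, 97.6, 84.1 and 93.1 in Tip60 cKO 1 to 5. Tip60 cKO 3 lay above control 4, and the other 4 mutant mice lay below every control. The mean was 6.18 lower in Tip60 cKO, by 4.33 among the mice sequenced on lane 7 and by 8.96 on lane 8. The strongest Lingo1 peak at this start was 9.58 ± 1.24-fold enriched in controls and 6.39 ± 0.996-fold in Tip60 cKO. Its pileup, the number of fragments stacked at the summit, scaled to 1000000 tags, was 1.13 to 1.56 in controls and 0.698 to 1.12 in Tip60 cKO, and the genotypes did not overlap. The summit lay at a median of 91.5 bases upstream of the first TSS.

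Slitrk5, a synaptic adhesion gene, had the highest mean rank score of the 7. Its fold enrichment was 10.6, 9.57, 12.0, 9.13 and 9.13 in controls and 8.84, 6.83, 8.04, 8.73 and 8.39 in Tip60 cKO. Every mutant mouse lay below every control, while the rank scores of 98.6 to 99.8 and 95.9 to 99.4 overlapped. Slitrk5 was the only one of the 7 genes with separate fold enrichments, which 5.43% of all genes had with Tip60 cKO lower and 0.632% with Tip60 cKO higher. This depth-scaled pileup was separate for Slitrk5 and Lingo1, 2 of the 7 genes, beside 7.43% of all genes with Tip60 cKO lower and 0.106% with Tip60 cKO higher. The estimated fragment length also enters the pileup, and was 179 to 213 bases in Tip60 cKO and 199 to 216 in controls.

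Slitrk1, whose product promotes excitatory synapses and neurite growth, scored 85.7 to 95.8 in controls and 87.6 to 96.2 in Tip60 cKO. Slitrk3 scored 78.2 to 96.7 and 90.6 to 96.2, and Lingo3 scored 84.5 to 92.7 and 87.5 to 96.8. Within lane 7 the Tip60 cKO mean of Slitrk1 was 1.38 lower and within lane 8 it was 7.40 higher. Lingo3 showed the same split, with -1.49 and 4.13. The genotypes overlapped at these 3 genes on every scale used. Summits lay 223 to 351 bases downstream of the Slitrk1 TSS in all 10 lists, a narrower band than the -1077 to 416 bases at Lingo3.

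Lingo2 scored 78.1, 80.0, 87.3, 78.0 and 76.8 in controls and 76.3, 80.6, 78.1, 82.5 and 77.1 in Tip60 cKO at its first start. The groups lay over one another, with a mean difference of -1.14. A lincRNA on the opposite strand, Gm12371, begins 1219 bases upstream of this TSS, and a ChIP peak between both starts belongs to neither by itself. The strongest summits lay 138 to 1356 bases downstream of the Lingo2 TSS in all 10 lists, and so inside Lingo2. Lingo4 scored 0, 66.7, 78.3, 77.2 and 65.7 in controls and 68.1, 86.0, 72.6, 70.3 and 91.3 in Tip60 cKO. Control 1 had no peak there, and the mean difference of 20.1 was 5.68 without that mouse. The antisense gene Gm43401 overlaps Lingo4, and a peak there cannot be assigned to one strand.

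The share of the 4 kb start window under peaks had a lower mean in Tip60 cKO for 6 of the 7 genes, with a median difference of -8.65 percentage points. Over all genes the median was -4.01 and 81.0% had a lower mean. At Lingo2 this coverage was 43.2% to 52.3% in controls and 20.3% to 44.9% in Tip60 cKO, and only Tip60 cKO 4 reached the control range. At Slitrk3 it was 41.9% to 60.2% and 36.4% to 42.2%, with an overlap of less than 1 percentage point. Lingo4 ran the other way, at 0% to 9.42% in controls and 8.90% to 17.2% in Tip60 cKO. The genotypes were separate in coverage for 0 of the 7 genes, beside 5.23% of all genes with Tip60 cKO lower and 0.157% with Tip60 cKO higher. The Tip60 cKO lists covered 22.6 to 59.5 Mb of the genome and the control lists 39.6 to 65.5 Mb.

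**Figure D2:**
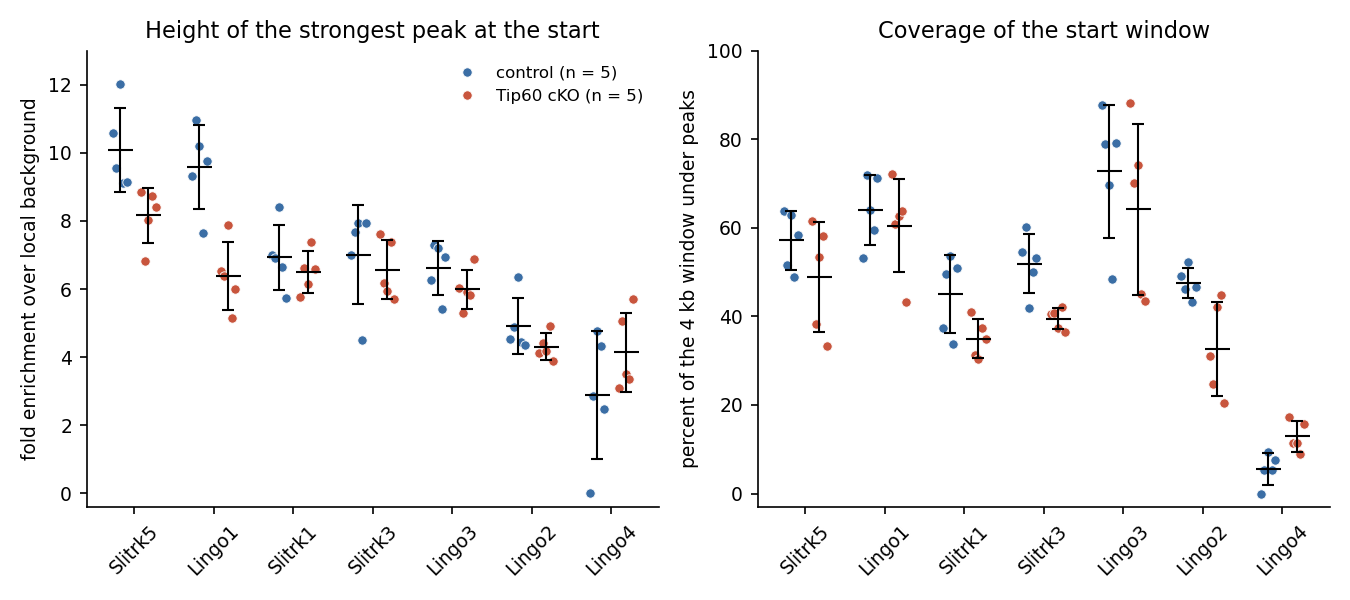
Fold enrichment of the strongest peak in the start window over the local background (left) and percent of the 4 kb start window under peaks (right) for each gene and mouse, controls in blue and Tip60 cKO in red, mean and SD in black (n = 5 per genotype). Slitrk5 is the one gene with separate fold enrichments, and Lingo4 is the one gene with higher mean coverage in Tip60 cKO.

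Alternative starts were scored in the same way among the starts of all annotated transcripts. At the internal start of Lingo2, 1107 kb downstream of the first and the nearest to the coding exon, a peak was present in 5 of 5 control lists and in 1 of 5 Tip60 cKO lists. The rank score was 75.2, 68.7, 82.3, 68.2 and 69.1 in controls, and 0, 0, 0, 57.7 and 0 in Tip60 cKO. The only mutant peak, in Tip60 cKO 4, was 3.28-fold enriched, below the 4.34 to 6.35-fold of the controls. The control summits stood 16 to 27 fragments high, and that of Tip60 cKO 4 stood 18 fragments high, within that range. Scaled to the tags of each library it was 0.547, below the 0.580 to 0.852 of the controls. The local background of its peak was 1.38 times the genome-wide level, whereas each control peak was measured against the genome-wide level itself. The 6 summits lay 29 to 183 bases downstream of the TSS, just after the printed Lingo2 sequence with 6 CpG. The lists record no height where no peak was called, so a score of 0 means a signal under the authors' threshold and not its absence. The lowest peak of any Tip60 cKO list stood 8 fragments high.

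The internal Lingo2 window was not called over the 70899 transcript starts tested, of which 0.141% were called lower and 0.0677% higher in Tip60 cKO. It was called without Tip60 cKO 4 and when each library was held to the same number of peaks. It was the 1 window of the 12 with peaks whose rank scores were separate, beside 1.64% of all transcript starts with Tip60 cKO lower and 1.78% with Tip60 cKO higher. The mean difference was -61.2, with -75.4 within lane 7 and -39.8 within lane 8. The 2 other alternative Lingo2 starts had no peak within 2 kb in any list. The nearest peak edge in any list was 3220 bases from one and 49645 bases from the other, just outside and far outside the limit of 2 kb.

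**Figure D3:**
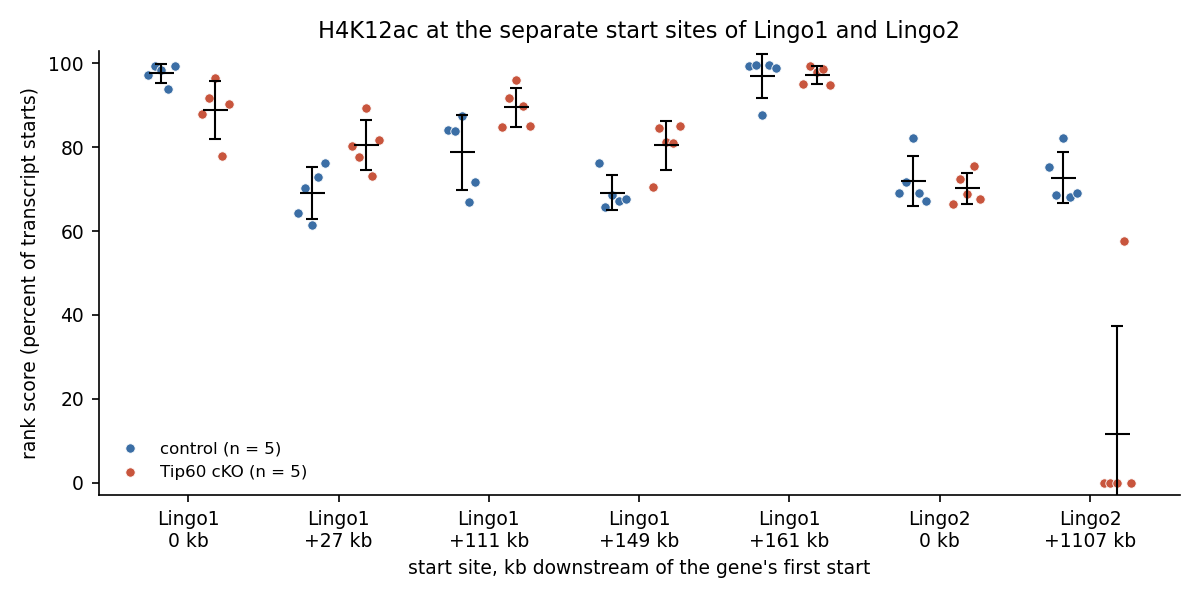
Rank score among all transcript starts (percent, vertical axis) at the separate start sites of Lingo1 and Lingo2 that had a peak, given by their distance downstream of the first start. Points are mice (blue control, red Tip60 cKO), bars are mean and SD (n = 5). The Lingo2 start at 1107 kb has 4 Tip60 cKO mice at 0, and the Lingo2 first start shows overlapping genotypes.

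Over all 10 mice the first Lingo2 start scored 71.0 and the internal start 42.1, and the difference of 28.9 ± 34.9 held in 7 of 10 mice. In control mice the scores of both starts were 71.9 ± 6.04 and 72.7 ± 6.08. In Tip60 cKO mice they were 70.2 ± 3.70 and 11.5 ± 25.8. In Lingo1 the most downstream start, 161 kb from the first, scored 97.1 over all 10 mice, against 93.3 at the first start, and was higher in 8 of 10. In control mice the last start scored 97.0 ± 5.21 and the first 97.7 ± 2.25, and in Tip60 cKO mice 97.2 ± 2.08 and 88.9 ± 6.93. These starts were picked as the highest in the same mice, so no test is given.

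In the Lingo2 gene body, which leaves out the 2 kb next to the TSS, control lists held 14, 17, 17, 16 and 23 peaks and Tip60 cKO lists held 7, 7, 2, 10 and 9. Every mutant mouse had fewer peaks than every control. Of the 12823 gene bodies compared, 1.18% were separate in this direction and 0.0702% in the other. Peaks covered 0.333% to 0.581% of the body in controls and 0.0349% to 0.193% in Tip60 cKO. The difference was -0.296 percentage points on lane 7 and -0.295 on lane 8. Lingo2 was the only one of the 7 genes with separate body coverage. Of the same 12823 bodies, 3.96% were separate with Tip60 cKO lower and 0.0468% with Tip60 cKO higher. Without the internal start the peaks still numbered 13 to 22 in controls and 2 to 9 in Tip60 cKO. When each library was held to its 64245 strongest peaks, the bodies held 5 to 9 and 0 to 9 peaks, the genotypes overlapped through Tip60 cKO 5, and the coverage difference was -0.139.

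**Figure D4:**
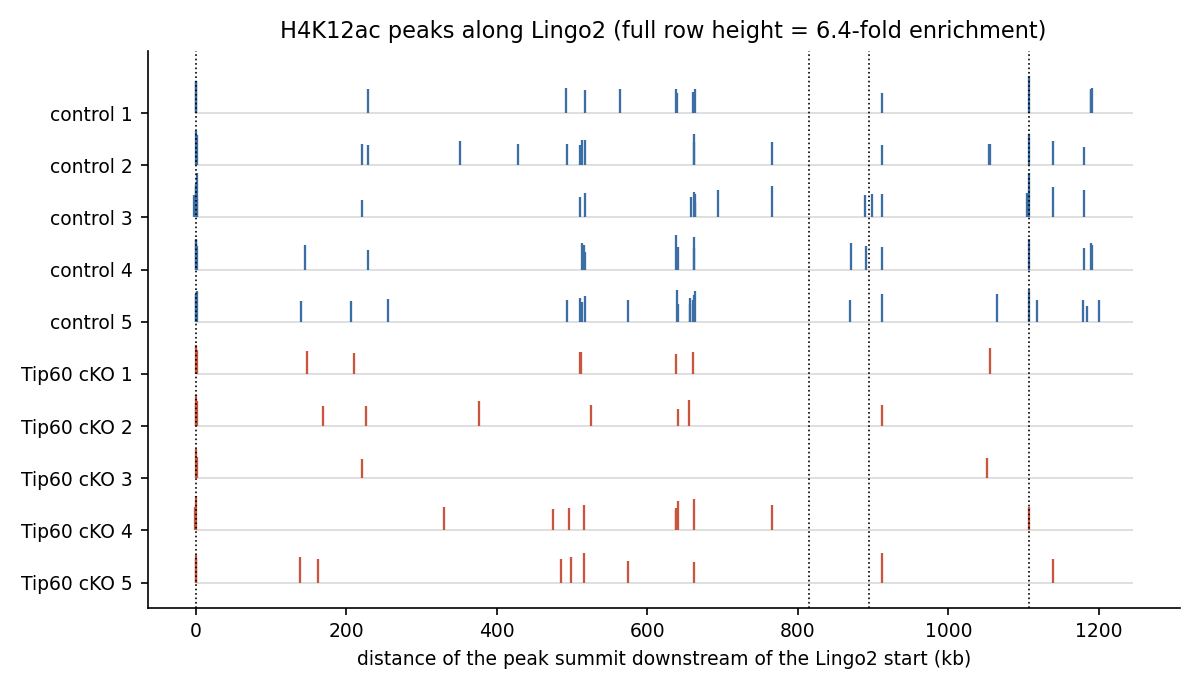
H4K12ac peaks along Lingo2 in each of the 10 mice (rows, control blue and Tip60 cKO red), by distance of the summit downstream of the first start in kb. Line height is fold enrichment and dotted lines mark the 4 start sites. Control rows carry 14 to 23 body peaks and Tip60 cKO rows 2 to 10.

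Other long genes were set beside this value. Among 160 genes with a body over 500 kb and on average at least 5 peaks per control list, the median ratio of mean peak numbers, Tip60 cKO over control, was 0.798, with quartiles of 0.714 and 0.919. The ratio of Lingo2 was 0.402, and 5 of the 160 genes, Lingo2 among them, were at or below it. The peak filter used the control lists alone, which favours genes with high control numbers and so lower ratios. Nothing is concluded from the place of Lingo2 among them. Over all bodies the ratio of total peaks was 0.879.

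Peaks of all lists were merged into 144781 consensus regions found in at least 2 lists, 131 of them at the 7 genes, and each was scored as the starts were. Of the 26 regions of Lingo2, 73.1% had a peak in more control than Tip60 cKO lists, against 42.0% of all regions and 22.2% of the 81 regions of Lingo1. A peak occurred in control lists only in 42.3% of the 26, against 13.8% of all regions. Of the 131 regions 2, both in Lingo2, were called lower and none higher in Tip60 cKO (limma), beside 0.476% and 0.0863% of all regions. Both were also separate between the genotypes, and 1 other region, in Lingo1, was separate with Tip60 cKO higher, beside 1.34% and 0.783% of all regions.

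The region with the highest control mean in each gene lay at the first start, except in Lingo2, where it was the internal start. Its mean score among all regions was 99.7 ± 0.169 in controls and 99.3 ± 0.576 in Tip60 cKO at Slitrk5, and 99.4 ± 0.580 and 96.5 ± 2.65 at Lingo1. It was 96.4 ± 1.92 and 97.1 ± 1.71 at Slitrk1, 95.8 ± 1.88 and 95.7 ± 1.84 at Lingo3, and 92.9 ± 8.65 and 97.2 ± 1.37 at Slitrk3. Of these 6 genes without Lingo2, Lingo4 had the lowest, at 51.6 ± 36.0 and 75.6 ± 17.9. The rank scores of the genotypes overlapped at each of these 6 regions.

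One called Lingo2 region, chr4:35844868-35845804, is the internal start and overlaps its first exon, so it repeats the window result. It scored 84.9 to 94.8 among regions in controls and 64.3 in Tip60 cKO 4 alone. Its call was lost in 8 of the 10 fits that left out 1 library, and stayed without Tip60 cKO 4 or without control 4. It was also lost with the replicate block and with a mean-dependent prior, the latter chosen after seeing the data. The difference in these fits was -88.3 to -72.3. The other region, chr4:36434504-36435231, lies in an intron 517 kb downstream of the first TSS, and had a peak in 5 control and 0 Tip60 cKO lists. Its rank scores in controls were 62.6, 72.0, 66.5, 56.9 and 68.3, and its fold enrichment was 2.55 to 3.66. Its score was 0 in every Tip60 cKO list, so leaving out a library says little about it. It was not called with peaks of q under 0.01 (-53.9), with equal numbers of peaks (-41.4) or with a mean-dependent prior.

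The intronic region is shown because it is a called region with peaks in every control and no mutant list. The sequence spans 300 bases around the median of the control summits, on the minus strand of GRCm38, with CpG in capitals.
Lingo2 intronic region, chr4:36434695-36434994, minus strand: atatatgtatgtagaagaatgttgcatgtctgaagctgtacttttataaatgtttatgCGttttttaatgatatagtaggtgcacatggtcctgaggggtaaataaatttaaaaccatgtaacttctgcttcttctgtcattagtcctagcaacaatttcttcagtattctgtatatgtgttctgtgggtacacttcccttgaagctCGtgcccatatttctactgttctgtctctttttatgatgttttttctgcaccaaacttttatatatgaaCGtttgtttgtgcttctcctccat
It held 3 CpG and 34.7% G and C, and TATAAA occurred 3 times over both strands. No annotated exon overlapped it, and the 5 control summits were spread over 417 bases.

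Lingo1 carried peaks along its whole length. Its body held 111, 108, 102, 88 and 109 peaks in controls and 133, 124, 115, 102 and 80 in Tip60 cKO, and the fewest were in the shortest list. In control mice peaks covered 38.1% of the body on average, more than or equal to 98.7% of 26117 gene bodies. Tip60 cKO coverage ranged from 18.6% to 47.4% and control coverage from 25.5% to 44.0%. The longest merged region of the gene measured 12918 bases (chr9:56658161-56671078), longer than 99.99% of all regions. Of the 81 Lingo1 regions 33.3% were present in all 10 lists, against 16.4% of all regions, and 72 overlapped no Lingo1 exon.

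**Figure D5:**
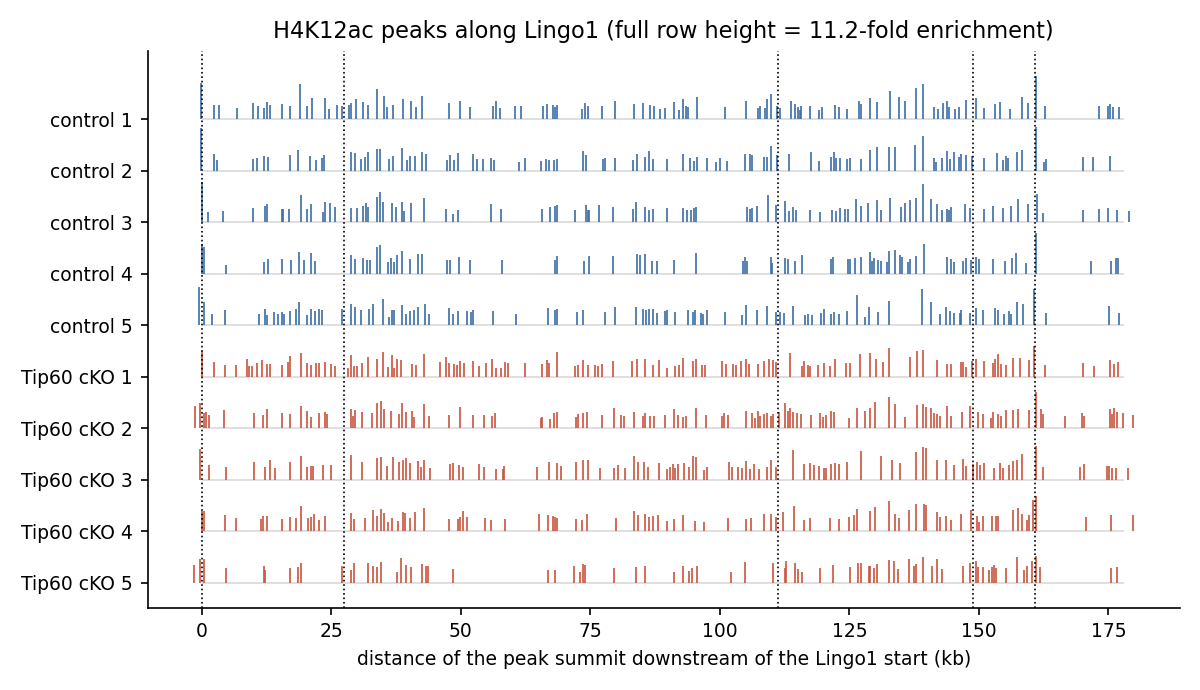
H4K12ac peaks along Lingo1 in each of the 10 mice (rows, control blue and Tip60 cKO red), by distance of the summit downstream of the first start in kb. Line height is fold enrichment and dotted lines mark the 5 start sites. Both genotypes carry peaks along the whole gene, from 80 to 133 per list in the body.

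Inside Lingo1 the mean ranks differed in the other direction from the first start. The 3 middle starts, 27.3, 111.2 and 148.8 kb downstream, had mean rank scores 11.4, 10.7 and 11.3 higher in Tip60 cKO, and the genotypes overlapped at each. Their mean depth-scaled pileups were 0.694, 0.864 and 0.703 in Tip60 cKO and 0.611, 0.977 and 0.726 in controls, so at 111.2 and 148.8 kb the heights ran the other way. At the start 27.3 kb downstream the strongest summit lay at a median of 1451 bases from the TSS, and with a window of 1 kb the difference was -29.6. At 111.2 kb the strongest summits lay at 1406 to 2999 bases from the TSS in Tip60 cKO and at -2070 to -1328 in controls. Different peaks were thus scored in the genotypes there, and its rank difference is not one at a single site. At 148.8 kb the strongest summits ranged from -1805 to 701 bases in Tip60 cKO and from -2233 to 668 in controls. The lists did not all score the same peak at that start either. Region chr9:56679908-56684373, in an intron 114 kb into the gene, scored 84.4 to 91.0 in controls and 94.9 to 98.9 in Tip60 cKO, and was not called. This region holds the Tip60 cKO peaks that scored the start at 111.2 kb, so its mutant values repeat that window. Its fold enrichment was 4.35 to 5.41 and 5.40 to 7.67. Its depth-scaled pileup was 0.839 to 0.972 in controls and 0.744 to 1.09 in Tip60 cKO, so the heights themselves overlapped. The local background of its strongest peak was 1.21 to 1.74 times the genome-wide level in controls and at most 1.11 times in Tip60 cKO. Over all Lingo1 peaks the median background was 1.13 to 1.17 times that level in controls and at most 1.03 times in Tip60 cKO. This background was taken from 1 pooled input library per genotype or from the genome-wide level, so input library and genotype cannot be told apart, and the part of the background in the ranks was not tested.

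At the last Lingo1 start, the one nearest to the main coding exon, whose upstream sequence with 22 CpG is printed above, both genotypes ranked high. The fold enrichment was 7.07 to 11.2 in controls and 6.86 to 9.20 in Tip60 cKO, and the mean rank scores of 97.0 ± 5.21 and 97.2 ± 2.08 differed by less than the spread between mice. The depth-scaled pileup was 1.24 to 1.59 in controls and 0.962 to 1.21 in Tip60 cKO, and there every mutant mouse lay below every control, as at the first start. On this scale 7.79% of all transcript starts were separate with Tip60 cKO lower and 0.0804% with Tip60 cKO higher. Control 3, at a score of 87.7, was the lowest of the 10.

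The short genes gave little room for body peaks. Slitrk5 had 36.3% ± 11.5 of its body covered in controls and 26.1% ± 7.28 in Tip60 cKO, with 27.3% to 53.9% and 16.1% to 33.7%. Slitrk1 had 24.4% to 38.4% in controls and 25.3% to 51.2% in Tip60 cKO. Lingo3 had 0% to 11.1% and 0% to 26.2%, with the mean 17.3 percentage points higher on lane 7 and 2.65 lower on lane 8. Lingo4 had a body peak in 1 list of each genotype. The genotypes overlapped at each of these 4 genes and at Slitrk3.

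Genes of known partners and relatives were read from the same fit over all genes. The 4 lists held 34 genes, of which 31 were tested, and limma called 0 at an adjusted p under 0.05, with 1 lower and 1 higher at an unadjusted p under 0.05, beside 1448 lower and 1106 higher of all 21672 genes. Their median difference was -1.38, beside -0.69 over all genes, and 23 of the 31 had a lower mean in Tip60 cKO. Among the LAR-type receptor phosphatases, to which SLITRK proteins bind, Ptprs scored 91.0 ± 6.23 in controls and 90.9 ± 6.44 in Tip60 cKO, and Ptprd scored 88.9 ± 4.65 and 88.9 ± 7.21. Of 9 genes of the Nogo receptor complex and its ligands, 7 were tested. The Nogo receptor gene Rtn4r scored 95.1 ± 1.44 and 93.2 ± 4.91, and its relative Rtn4rl1 scored 93.1 ± 4.31 and 94.2 ± 2.29. Mag, a myelin gene, and Ngfr had no TSS peak in any list.

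The other Slitrk genes were weakly marked. Slitrk2 had a TSS peak in 4 control and 3 Tip60 cKO lists, Slitrk4 in 2 and 5, and Slitrk6 in none. Slitrk4, the 1 gene higher at an unadjusted p under 0.05, scored 28.2 ± 38.7 in controls and 71.8 ± 4.82 in Tip60 cKO (limma adjusted p = 0.347). Of 19 other leucine-rich repeat membrane proteins, 15 had a TSS peak in all 10 lists and 14 had a lower mean in Tip60 cKO, with a median difference of -1.65. Lrrc4b scored 98.5 ± 1.37 and 96.8 ± 2.15, and Lrfn4 scored 98.4 ± 1.41 and 95.3 ± 4.29. Lrfn3, the 1 gene lower at an unadjusted p under 0.05, scored 93.8 ± 3.64 and 87.0 ± 4.32 (limma adjusted p = 0.365).

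The transcript starts most like the internal Lingo2 start were found by the mean absolute difference in rank score over the 10 libraries among protein-coding genes. The 5 nearest genes were Depdc5 at 2.82, Zmat1 at 4.41, Gpsm2 at 4.69, Clpb at 4.73 and Qtrt2 at 4.88. Each of these starts had a peak in 5 control lists and 1 Tip60 cKO list. This pattern follows from choosing them by closeness over the same libraries and is no separate result.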

How the data were processed

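H4K12ac ChIP-Seq libraries of 5 Tip60 cKO and 5 control mice were analysed as the authors deposited them, 1 peak table per mouse. The authors aligned reads to mm10 with STAR, removed duplicates with SAMtools and called peaks with MACS 2.1.0.20140616 at q under 0.1, each library against 1 pooled input of its genotype. Per the file headers, the pileup signal is the fragment height at the summit, not scaled for depth. In the deposited tables, fold enrichment relates that height as a ratio to a local background over 1 and 10 kb or genome-wide, and the deposited −log10 p and −log10 q values were used only for the threshold.

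The strongest fold enrichment within 2 kb of each TSS (GENCODE M21) and in merged regions was turned into a percent rank within each library, with 0 where there was no peak. Features with a peak in at least 2 lists were compared with limma 3.58.1 in R 4.3.3 with Benjamini-Hochberg adjustment. Tested on simulated data with no change, limma still called 7 of 19399 genes, 5 of 19498 transcript starts and 17 of 17477 regions. Single calls are therefore weak, and the simulated sets were smaller than those fitted. With shifts of 30 rank points 95% of changed genes, 79.5% of changed transcript starts and 53% of changed regions were recovered. The changed features were drawn only from those with a peak in every list and a high score. These rates therefore do not cover features without a peak in some lists, such as the internal Lingo2 start. Gene bodies run from 2 kb after the TSS in genes over 4 kb. Neighbouring members and starts were compared within mice. The exact sign-flip tests planned for them were run but are not reported, since the pairs were read from the same mice. Sequences are RefSeq GRCm38.p6. Other scripts used Python 3.11.15, numpy 2.4.6 and pandas 2.3.3. Lanes 7 and 8 were read from the deposited files' names and hold both genotypes. The 7 genes, the lists of partners and the alternatives were chosen with earlier results of these data known. Named were the 7 genes, called partner genes or else the 2 highest per list in controls, the 5 starts most like the member start with the largest difference, and member regions that were called, separate or highest. Lrfn3, Slitrk4, Slitrk6, Mag, Ngfr, Gad1, Gad2, Slc32a1 and the longest Lingo1 region were singled out after their values were seen. Labels do not say that mice were unpooled, so spreads are those between samples. Some items are not reported here.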

Additional observations from a re-analysis of the deposited data

Results flagged for a closer look

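In 8 of 52 groups of 5 mice the gap of an extreme mouse to its nearest neighbour exceeded 0.71 of the range. The rule is set to flag about 5% of groups by chance. That rate does not hold for bounded values that are 0 without a peak, so no excess is read from the count. At Lingo4, control 1 had a TSS rank score of 0 while the other controls scored 65.7 to 78.3. Peaks covered 11.9% of the Lingo4 body in Tip60 cKO 3 and 8.76% in control 4, and 0% in the other mice. At Lingo3, Tip60 cKO 5 scored 96.8 at the TSS, against 87.5 to 90.2 in the other mutant mice. At the Lingo1 start 148.8 kb into the gene, Tip60 cKO 1 scored 70.56 (others 81.1 or more) and control 1 scored 76.4 (others 65.7 to 68.6). At the last Lingo1 start, control 3 scored 87.7 (other controls 98.8 to 99.5). At the internal Lingo2 start, Tip60 cKO 4 scored 57.7 and the other mutant mice 0. No library recurs in more than 2 of these flags.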

How the results depend on the processing

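The tables were recomputed with peaks of q under 0.01, with equal numbers of strongest peaks, with ranks by pileup, with 1 kb windows, with a lane term, with a mean-dependent robust prior, with features in at least 5 lists and with each library left out. For consensus regions the prior and the 5-list filter were chosen after seeing the data. Over all genes, 34 were called lower and 17 higher, and leaving out 1 library gave 36 to 77 and 15 to 41. The calls were 26 lower and 60 higher with the robust prior, 43 and 32 with the 5-list filter, 30 and 28 with equal numbers of peaks, and 30 and 7 by pileup. Of the consensus regions, 689 were called lower and 125 higher, with 674 to 1271 and 140 to 419 when 1 library was left out, 201 lower and 117 higher with the robust prior, 306 and 143 with equal numbers of peaks, and 927 and 235 with the 5-list filter. Members with a lower mean numbered 2 to 5 with 1 library left out, 5 without control 4. No member was called at its gene TSS under any of these alternatives. The Lingo2 internal start differed by -72.7 to -58.3 with 1 library left out. The gap between Lingo2 and Lingo4 over all mice was 38.9 with equal numbers of peaks, against 11.9. The cause of these changes was not tested.

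Same-numbered mice did not deviate together, with correlations of -0.038 to 0.055 over genes. With the replicate block 30 genes were called lower and 5 higher, and 227 consensus regions lower and 27 higher, and the internal Lingo2 region was no longer called. Pileups of 16 to 27 fragments at the Lingo2 internal start and the authors' peak threshold limit what can be detected there.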
